A study of Mus musculus with 6 samples.

Results

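The genes of the aminoacyl-tRNA synthetases were followed in the mouse mammary tumour line 4T1, either wild type (WT) or with a knockout (KO) of Myo1e, whose product is an actin-based motor protein. Members were the rows of the deposited matrix whose symbol has the form of a synthetase gene (a letter for the amino acid, then "ars", alone or with 1, 2, a, b or l2) or is Eprs or Eprs1. This gave 38 of the 11452 gene symbols. Of these, 19 were classed as cytosolic, 17 as mitochondrial by the suffix 2, and 2, Kars and Gars, as dual, since each of these genes makes the enzyme of both compartments. Tarsl2, a further cytosolic threonyl-tRNA synthetase, was counted as cytosolic in spite of its final 2. All 38 members passed the filter on low values, which asked for log2 CPM (reads scaled to library size, on the log2 scale) of 0 or more in 3 or more of the 6 libraries.

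Each synthetase joins an amino acid to its tRNA, the step that fixes the genetic code before the ribosome reads it. The cytosolic and mitochondrial enzymes are encoded by separate nuclear genes for most amino acids, and 8 of the cytosolic or dual enzymes (those of Eprs, Iars, Lars, Mars, Qars, Rars, Kars and Dars) sit with scaffold proteins in the multisynthetase complex. When amino acids are short or the endoplasmic reticulum is stressed, kinases of the initiation factor eIF2 raise translation of the transcription factor ATF4. ATF4 then induces amino acid synthesis enzymes, amino acid transporters and many, though not all, cytosolic synthetase genes.

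Both groups were pools of 4T1 cells, and genotype was the only factor that the labels vary. How the knockout was made was not stated, and nothing in the labels ties the pools to separate clones, so p-values measure the spread between these libraries, which may be technical. Each genotype had 3 libraries from stranded mRNA preparations of column-purified total RNA. The matrix columns carry the numbers 1, 2 and 4 in each genotype and are called KO 1 to WT 4 here. The sample titles count pools 1 to 3, so the columns numbered 4 were matched to a genotype only. No label says what sets the number 4 apart.

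The whole reads recovered from the deposited values numbered 17772003 to 19988206 per library, and synthetase genes held 111 (Pars2) to 23216 (Aars) of them in a library. Myo1e was at 6.87, 6.81 and 6.81 log2 CPM in the KO libraries (1, 2, 4) and at 7.09, 7.02 and 6.91 in the WT libraries (1, 2, 4), the order kept throughout. Each KO value lay below each WT value. The KO minus WT difference of -0.18 (SE 0.09) did not pass in limma's test (adjusted p = 0.9999). It did not pass with the library number as a replicate block either (SE 0.05, limma adjusted p = 0.316). The transcript level therefore does not check the KO label. All 7 epithelial markers were in the matrix, along with 1 of 6 fibroblast markers (Pdgfra) and 0 of 7 leukocyte and 0 of 4 endothelial markers, so most markers of those other cells were absent or below the matrix's own floor. Between the libraries numbered 4 and the others, described below, Pdgfra differed by 0.38 (limma adjusted p = 0.0387). Of the 7 epithelial markers 3 rose and 3 fell, from -1.44 for Krt14 to 0.89 for Cldn4. These are 42.9% each, where 31.8% of all genes were called higher and 33.8% lower. The part of these markers in the synthetase values was not tested. In bulk libraries a smaller number of cells of a kind and less RNA per cell cannot be told apart.

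Promoters are shown first because a short motif was present in some members that were higher together. RefSeq promoters (GRCm38.p6, 250 bases before to 50 after the annotated start) were found for 28 of the 38 members. They were searched on both strands for TGATGNAA, a form of the composite element that C/EBP and ATF factors, ATF4 among them, are known to bind, and for a form of the site (GCGC, any base, TGCGC) of NRF1, a regulator of nuclear genes for mitochondria. No match of the first overlapped a match of the NRF1 form in these members. Of all 32851 promoters of this length, 3.97% held TGATGNAA and 4.6% the NRF1 form. TGATGNAA was found in 4 of the 7 promoters at hand of cytosolic members that were higher in the libraries numbered 4 (Aars, Tars, Iars and Yars) and in 0 of 5 of the other cytosolic members. It was found in 0 of 14 mitochondrial members and in the dual gene Gars. With 3.97% of all promoters holding it, 0 of 14 and 0 of 5 are near the background and set neither group apart. A match describes letters and is not a measured binding site.

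The stretch from position -130 to position 20 around the RefSeq start is printed, 5′ to 3′, for the 5 members with a match, with the matching bases in capitals. They lie at chr8:111033712-111033861, plus strand (Aars), chr15:11399639-11399788, minus strand (Tars), chr13:49682000-49682149, plus strand (Iars), chr4:129189773-129189922, plus strand (Yars) and chr6:55037871-55038020, plus strand (Gars).
Aars: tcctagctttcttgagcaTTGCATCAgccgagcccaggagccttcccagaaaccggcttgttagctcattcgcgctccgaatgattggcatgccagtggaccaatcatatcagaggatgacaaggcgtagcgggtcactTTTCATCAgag
Tars: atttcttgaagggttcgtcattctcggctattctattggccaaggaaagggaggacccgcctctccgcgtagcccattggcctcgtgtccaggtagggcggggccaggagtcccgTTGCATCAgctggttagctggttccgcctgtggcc
Iars: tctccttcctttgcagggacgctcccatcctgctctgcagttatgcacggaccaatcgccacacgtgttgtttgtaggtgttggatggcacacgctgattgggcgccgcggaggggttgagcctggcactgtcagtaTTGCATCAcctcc
Yars: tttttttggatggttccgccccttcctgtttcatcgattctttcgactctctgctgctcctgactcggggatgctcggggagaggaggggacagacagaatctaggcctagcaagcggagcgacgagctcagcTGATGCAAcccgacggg
Gars: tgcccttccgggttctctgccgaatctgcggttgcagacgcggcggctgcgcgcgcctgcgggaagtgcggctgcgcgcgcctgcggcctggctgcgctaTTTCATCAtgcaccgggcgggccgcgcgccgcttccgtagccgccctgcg
Aars holds the motif at -112 to -105 and again at 10 to 17, counted with the start as 1 and the base before it as -1. In Tars it lies at -15 to -8, in Iars at 8 to 15, in Yars at 4 to 11 and in Gars at -30 to -23. In the 4 genes other than Yars the match is on the minus strand of the promoter, so the capitals show its reverse complement.

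For contrast, the same stretch is given for Sars, the member with the largest rise in the libraries numbered 4, and for Farsa and Kars, which were lower there. They lie at chr3:108445240-108445389, minus strand (Sars), chr8:84856856-84857005, plus strand (Farsa) and chr8:112011335-112011484, minus strand (Kars), and capitals in Kars mark the NRF1 form at -49 to -40.
Sars: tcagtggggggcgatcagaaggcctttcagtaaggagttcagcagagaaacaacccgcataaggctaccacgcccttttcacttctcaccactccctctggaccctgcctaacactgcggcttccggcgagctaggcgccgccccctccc
Farsa: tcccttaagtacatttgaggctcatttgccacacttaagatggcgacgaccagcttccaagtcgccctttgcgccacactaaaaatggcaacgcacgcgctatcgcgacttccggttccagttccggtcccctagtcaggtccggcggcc
Kars: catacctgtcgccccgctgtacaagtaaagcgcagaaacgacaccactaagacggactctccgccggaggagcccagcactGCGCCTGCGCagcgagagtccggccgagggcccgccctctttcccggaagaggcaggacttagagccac
None of these 3 windows holds TGATGNAA, the one of Sars included, so a match did not go with every member that was higher. The NRF1 form was found in 2 of 14 mitochondrial members (Iars2 and Mars2), in 2 of the 7 cytosolic members that were higher (Tars and Farsb), in 0 of 5 other cytosolic members and in Kars. Of the amino acid response genes described further on, 9 of 28 with a promoter held TGATGNAA, among them Asns, Atf3 and Chac1.

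Levels of the members spanned a wide range in cells of either genotype. Per kilobase of the principal transcript and averaged over the 4 libraries numbered 1 and 2, the dual gene Kars was highest at 280.2 CPM per kb. Vars (174.9), Gars (174.0), Lars2 (163.0), Rars (158.0) and Nars (143.7) followed. Of the other mitochondrial enzymes, Yars2 (30.3), Tars2 (28.7) and Iars2 (25.4) were highest per length and Mars2 (2.24) and Pars2 (2.93) lowest. The principal transcript of Mars2 is annotated with 11294 bases. Without the division by length Mars2, at a mean of 4.66 log2 CPM in the libraries numbered 1 and 2, was above Pars2 at 2.69. Tarsl2, at 10.5, was the lowest cytosolic enzyme, against 92.0 for Tars. In the libraries numbered 4 the order per length changed, with Nars (281.5), Sars (232.3), Gars (214.2), Eprs (212.3) and Lars2 (211.8) at the top and Kars at 177.2.

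**Figure D1:**
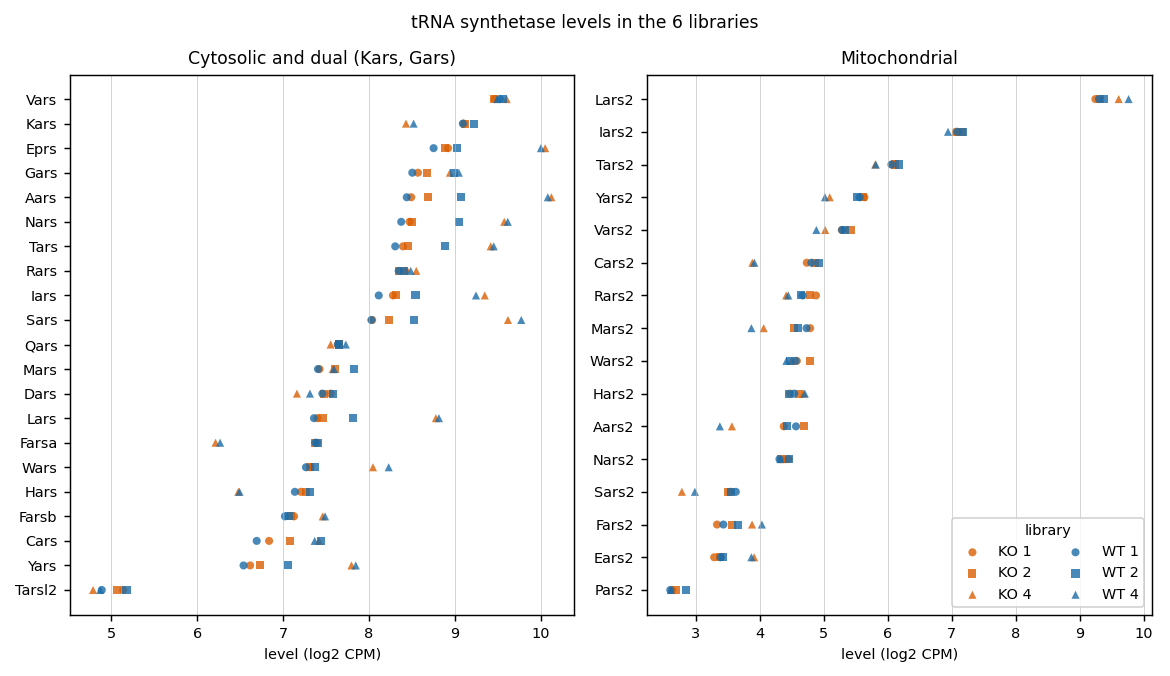
Level in log2 CPM (x axis) of the synthetase genes (y axis, ordered by its mean in libraries 1 and 2) in the 6 libraries, with KO in orange, WT in blue, and circles, squares and triangles for the numbers 1, 2 and 4. The triangles stand to the right of the other points for Sars, Aars and Eprs and to the left for Farsa and Aars2, and the WT 2 square stands to the right of WT 1 in all 19 cytosolic genes.

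The libraries numbered 4 were first set against those numbered 1 and 2, with genotype as a covariate. Cytosolic synthetase genes were mostly higher there and mitochondrial ones mostly lower. Of the 19 cytosolic members 11 were higher and 4 lower past limma's threshold (adjusted p of 0.05 over all 11269 genes), with a median log2 difference of 0.40. Of the 17 mitochondrial members 3 were higher and 9 lower, with a median of -0.30. Over all genes tested, 31.8% were called higher and 33.8% lower, with a median of 0.0031. By limma's voom on the recovered reads the 4 counts were the same, 11, 4, 3 and 9, against 32.4% and 33.6% of all genes. The share of cytosolic members called higher was 57.9% and that of mitochondrial members called lower 52.9%, both above these backgrounds, while cytosolic members called lower (21.1%) and mitochondrial members called higher (17.6%) were below them. Without KO 4 the cytosolic members called lower were 2, and with Tarsl2 classed as mitochondrial the cytosolic median was 0.61.

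**Figure D2:**
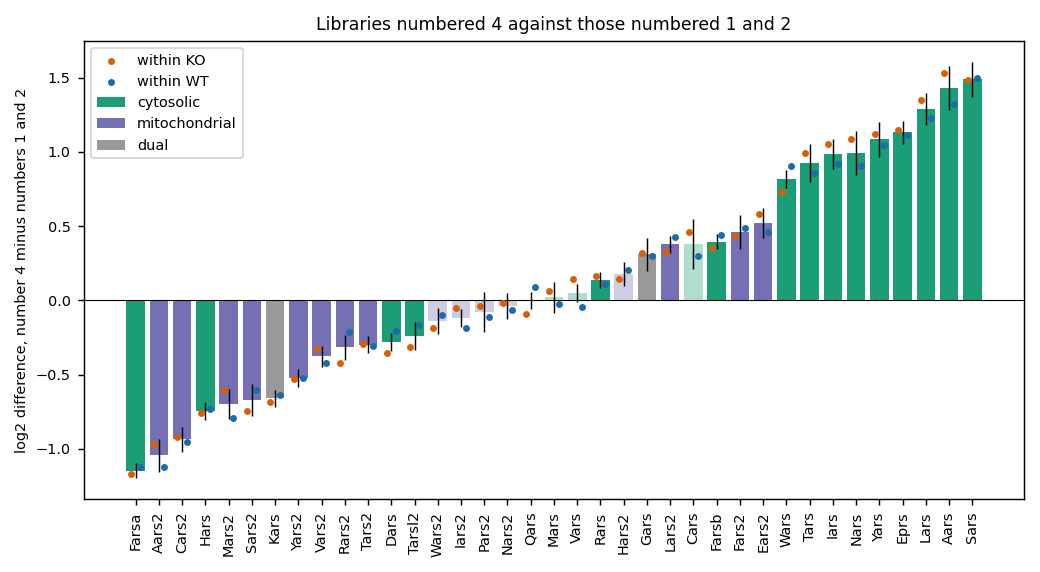
Log2 difference of the libraries numbered 4 minus those numbered 1 and 2 (y axis) for the synthetase genes (x axis, in order), with bars for the fit over both genotypes, lines for 1 SE and dots for the difference within KO (orange) and within WT (blue). Pale bars did not pass the threshold. Green cytosolic bars fill the right end, from Wars (0.82) to Sars (1.49), and Farsa (-1.15) and Aars2 (-1.04) stand at the left end.

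Among cytosolic enzymes the largest rise was that of Sars, the seryl-tRNA synthetase (GRCm38 chromosome 3, 108424865 to 108445209, minus strand). It was at 8.04, 8.23 and 9.62 log2 CPM in KO and at 8.03, 8.52 and 9.77 in WT. KO 4 and WT 4 were both far above the other 4 libraries, and the difference was 1.49 (SE 0.12, 2.81-fold, limma adjusted p = 6.87e-06). Aars, the alanyl-tRNA synthetase (chromosome 8, 111033144 to 111057664, plus strand), was at 8.49, 8.68 and 10.12 in KO and at 8.44, 9.07 and 10.08 in WT. Its 2 libraries numbered 4 were again the highest, with WT 2 next, and the difference was 1.43 (SE 0.15, 2.69-fold, limma adjusted p = 3.22e-05).

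Lars, the leucyl-tRNA synthetase of the multisynthetase complex (chromosome 18, 42202298 to 42262194, minus strand), was at 7.40, 7.46 and 8.78 in KO and at 7.36, 7.81 and 8.81 in WT. It was higher in the libraries numbered 4 by 1.29 (SE 0.11, limma adjusted p = 7.8e-06). Eprs, a fused enzyme that charges both glutamate and proline tRNAs (chromosome 1, 185363044 to 185428360, plus strand), was at 8.92, 8.88 and 10.05 in KO and at 8.75, 9.02 and 9.9997 in WT. Its rise was 1.13 (SE 0.08, limma adjusted p = 2.47e-06). Yars, the tyrosyl-tRNA synthetase (chromosome 4, 129189760 to 129219607, plus strand), was at 6.62, 6.73 and 7.80 in KO and at 6.54, 7.05 and 7.85 in WT, a rise of 1.09 (SE 0.12, limma adjusted p = 4.32e-05). In all 3 genes the groups did not overlap, and WT 2 was the next highest library after the libraries numbered 4 in each.

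The other 6 cytosolic members that rose did so by 0.14 to 0.99. They were Nars (0.99), Iars (0.98), Tars (0.93), Wars (0.82), Farsb (0.40) and Rars (0.14), which charge asparagine, isoleucine, threonine, tryptophan, phenylalanine and arginine. Rars, with an adjusted p of 0.0431 in limma's test, lost its call when any of KO 1, KO 2, KO 4, WT 1 or WT 4 was left out, with median centring and with an untrended variance. Cars, the cysteinyl enzyme, did not pass at 0.38 (SE 0.17, limma adjusted p = 0.0757), and WT 2 at 7.44 lay above KO 4 at 7.42 and WT 4 at 7.37. Without WT 2 the difference of Cars was 0.55 and passed (limma adjusted p = 0.000247). With quantile normalization Cars and Vars passed at 0.48 and 0.20 (limma adjusted p = 0.0349 and 0.0252). Vars (0.05), Mars (0.02) and Qars (-0.0019) did not pass either and had overlapping groups.

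The 4 cytosolic members that fell were Farsa, Hars, Dars and Tarsl2. Farsa, the catalytic alpha subunit of the phenylalanyl-tRNA synthetase (chromosome 8, 84856989 to 84869257, plus strand), was at 7.39, 7.37 and 6.21 in KO and at 7.37, 7.41 and 6.27 in WT. Libraries 1 and 2 of both genotypes lay between 7.37 and 7.41, and the libraries numbered 4 were lower (difference -1.15, SE 0.05, limma adjusted p = 2.86e-07). Hars, the histidyl enzyme, was at 7.21, 7.26 and 6.48 in KO and at 7.14, 7.32 and 6.49 in WT, a difference of -0.75 (SE 0.06, limma adjusted p = 8.52e-06). Dars, the aspartyl enzyme of the multisynthetase complex, was at 7.55, 7.47 and 7.16 in KO and at 7.46, 7.58 and 7.31 in WT, a difference of -0.28 (SE 0.06, limma adjusted p = 0.00304) that did not pass without KO 4. Tarsl2 fell by 0.24 on the log2 scale (limma adjusted p = 0.0479), a call that ended when KO 1, KO 2, KO 4, WT 2 or WT 4 was left out, and with an untrended variance.

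Farsa and Farsb, the alpha and beta subunits of 1 enzyme, moved in opposite directions. The log2 ratio of Farsb to Farsa was -0.27, -0.28 and 1.25 in KO and -0.35, -0.34 and 1.22 in WT. The beta subunit transcript was thus below the alpha subunit transcript in the 4 libraries numbered 1 and 2 and above it in both libraries numbered 4, on the scale of reads not corrected for length.

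The dual genes also parted. Kars, whose gene makes the cytosolic and mitochondrial lysyl enzymes, was at 9.10, 9.12 and 8.43 in KO and at 9.09, 9.23 and 8.52 in WT, a difference of -0.66 (SE 0.06, limma adjusted p = 1.02e-05). Gars, which makes both glycyl enzymes, was at 8.57, 8.67 and 8.94 in KO and at 8.50, 8.98 and 9.04 in WT. Its difference was 0.31 (SE 0.11, limma adjusted p = 0.0334), but WT 2 lay above KO 4, so the groups overlapped. The Gars call ended without KO 1, KO 2, KO 4 or WT 4, and with a robust or an untrended variance.

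Within the multisynthetase complex 4 of the 8 enzymes rose (Lars, Eprs, Iars and Rars), 2 fell (Kars and Dars) and 2 did not pass (Mars and Qars). These are 50% and 25% of the complex, where 31.8% of all genes were called higher and 33.8% lower, and the call of Rars ended under the alternatives named above. The complex's scaffold genes, from a list of 25 partners of tRNA charging of which 24 were tested, divided as well. Aimp2, at 6.47, 6.52 and 5.74 in KO and 6.46, 6.39 and 5.75 in WT, fell by 0.72 on the log2 scale, and Eef1e1 fell by 0.77, whereas Aimp1 rose by 0.29. Over the whole partner list 6 members (25%) rose and 10 (41.7%) fell, with a median of -0.03, near the shares of all genes (31.8% and 33.8%). Xpot, the exporter of tRNA from the nucleus, rose by 1.10 (SE 0.07), and Sepsecs, which turns phosphoseryl-tRNA into selenocysteinyl-tRNA, rose by 1.09 (SE 0.11).

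By the structural class of the catalytic domain, 9 cytosolic members belong to class I and 9 to class II, and Eprs holds a domain of each. Class I members were higher in 5 cases, Rars among them, and lower in 0. Class II members were higher in 5 cases and lower in 4, Tarsl2 among the latter. The calls of Rars and Tarsl2 ended under the alternatives named above. Of all genes 31.8% were called higher and 33.8% lower, and with 9 members a class the shares (55.6% higher in both, 44.4% of class II lower) are a description only.

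The mitochondrial enzymes were lower in most cases. Aars2, the mitochondrial alanyl enzyme (chromosome 17, 45506841 to 45520843, plus strand), was at 4.37, 4.68 and 3.56 in KO and at 4.56, 4.42 and 3.37 in WT. The libraries numbered 4 lay below all others, and the difference was -1.04 (SE 0.11, limma adjusted p = 3.59e-05). Cars2, the cysteinyl enzyme (chromosome 8, 11513977 to 11550783, minus strand), was at 4.73, 4.87 and 3.88 in KO and at 4.80, 4.93 and 3.91 in WT, a difference of -0.94 (SE 0.08, limma adjusted p = 1.28e-05). Mars2, the methionyl enzyme (chromosome 1, 55237177 to 55248470, plus strand), was at 4.78, 4.53 and 4.06 in KO and at 4.73, 4.59 and 3.87 in WT, a difference of -0.70 (SE 0.10, limma adjusted p = 0.000254). All 3 genes were lower in KO 4 and WT 4 than in any other library. Others that fell were Sars2 (-0.67), Yars2 (-0.52), Vars2 (-0.38), Rars2 (-0.32) and Tars2 (-0.30), of which Rars2 did not pass without KO 4.

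Against that direction, 3 mitochondrial members rose. Ears2, the glutamyl enzyme (chromosome 7, 122037213 to 122067263, minus strand), was at 3.28, 3.37 and 3.91 in KO and at 3.39, 3.43 and 3.87 in WT, a rise of 0.52 (SE 0.10, limma adjusted p = 0.00151). Fars2, the phenylalanyl enzyme, was at 3.33, 3.56 and 3.88 in KO and at 3.43, 3.65 and 4.03 in WT, a rise of 0.46 (SE 0.12, limma adjusted p = 0.00624) that did not pass without WT 4. Lars2, the leucyl enzyme, was at 9.24, 9.32 and 9.61 in KO and at 9.30, 9.38 and 9.76 in WT, a rise of 0.38 (SE 0.06, limma adjusted p = 0.000359). In each of the 3 genes both libraries numbered 4 were above the other 4.

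Among the mitochondrial members that did not pass, Hars2 was at 4.47, 4.60 and 4.68 in KO and at 4.54, 4.46 and 4.70 in WT (difference 0.18, limma adjusted p = 0.0817). Nars2 was at 4.45, 4.33 and 4.37 in KO and at 4.31, 4.46 and 4.32 in WT, with overlapping groups. Pars2 (-0.08), Iars2 (-0.12) and Wars2 (-0.14) were the others. Both libraries numbered 4 lay above all others in 11 of 19 cytosolic and 4 of 17 mitochondrial members, and below all others in 4 and 10 (35.8% and 37% of all genes tested).

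Pairing cytosolic enzymes with the mitochondrial enzyme of the same amino acid made 15 pairs outside phenylalanine, with Eprs used for both glutamate and proline. In 14 of the 15 pairs the cytosolic enzyme had the more positive difference between the libraries numbered 4 and the others. In 12 the cytosolic difference was above 0 and the mitochondrial one below 0, a count of signs alone. Of these, both genes passed only for alanine, arginine, serine, threonine and tyrosine. The calls of Rars and Rars2 ended under alternatives named above. The median gap within pairs was 1.03 on the log2 scale, with a range of -0.92 to 2.47. The largest was alanine, where the log2 ratio of Aars to Aars2 was 4.12, 4.00 and 6.56 in KO against 3.88, 4.65 and 6.71 in WT. For phenylalanine, outside the 15 pairs, the gap was -1.61 for Farsa against Fars2 and -0.07 for Farsb against Fars2. Among the 15 pairs histidine was the exception, with a log2 ratio of Hars to Hars2 of 2.74, 2.66 and 1.80 in KO and 2.60, 2.86 and 1.79 in WT. The Hars and Hars2 genes lie head to head on chromosome 18, and their exons share 195 bases on opposite strands, so reads of the shared stretch can be misassigned if strand was not used in counting.

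**Figure D3:**
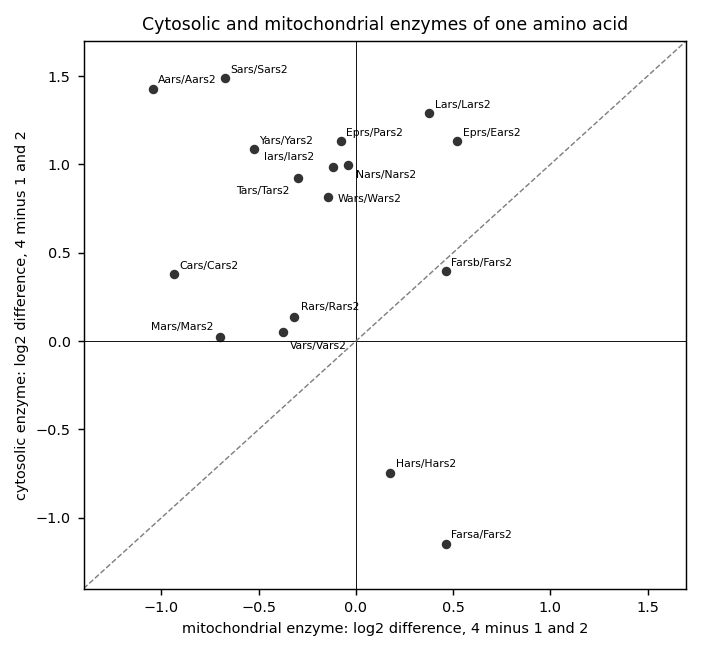
Log2 difference of the libraries numbered 4 minus those numbered 1 and 2 for the cytosolic (y axis) and the mitochondrial (x axis) enzyme of the same amino acid, a point per pair, with Farsa and Farsb each set against Fars2. Points above the dashed line of equal difference have the more positive cytosolic value, which holds for 14 of the 15 pairs outside phenylalanine. Hars with Hars2 lies below the line, as do Farsa with Fars2 (gap -1.61) and Farsb with Fars2 (gap -0.07).

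Summed over genes, the cytosolic enzymes held 4746, 4879 and 8190 CPM in KO and 4548, 5707 and 8233 CPM in WT. The mitochondrial enzymes held 1145, 1197 and 1245 CPM in KO and 1173, 1220 and 1314 CPM in WT, a sum that was highest in the libraries numbered 4. Lars2 alone made up more of it than the other 16 mitochondrial genes together. Without Lars2 the sum was 538.2, 560.0 and 463.9 CPM in KO and 542.2, 555.7 and 445.0 CPM in WT, lowest in the libraries numbered 4. The direction of the summed mitochondrial level therefore rests on Lars2, whereas the class median was -0.30 with it and -0.31 without it.

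**Figure D4:**
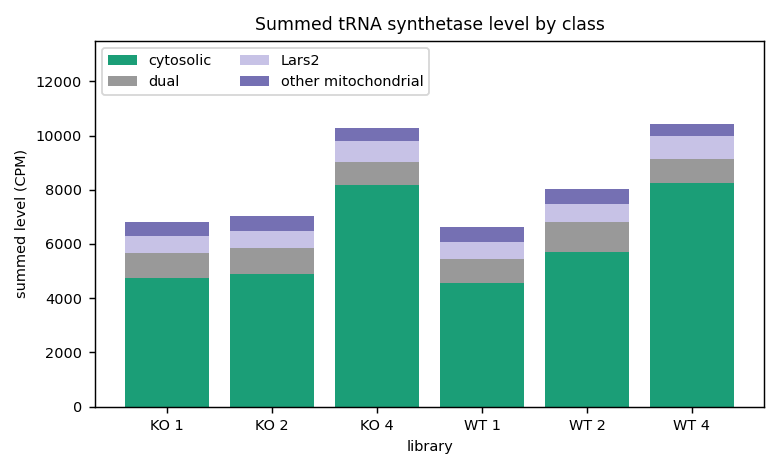
Summed level in CPM (y axis, from 0) of the cytosolic, dual and mitochondrial synthetase genes in each library (x axis), with Lars2 drawn apart from the other mitochondrial genes. The cytosolic part is 8190 CPM in KO 4 and 8233 CPM in WT 4, and WT 2 at 5707 CPM is the highest of the others.

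The same comparison within each genotype had fewer libraries, 1 against 2, and gave counts close to these. In KO 10 cytosolic members were called higher and 3 lower, and 2 mitochondrial members higher and 9 lower, where 24.2% of all genes were called higher and 27.7% lower. In WT the counts were 10 and 2 for cytosolic and 3 and 8 for mitochondrial members, where the shares of all genes were 23.4% and 26.2%. The medians within KO were 0.46 for cytosolic and -0.29 for mitochondrial members, and within WT 0.44 and -0.21. The lone library numbered 4 is assumed here to vary like the others.

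Whether the difference itself depended on genotype was tested with an interaction term. No member passed in limma's test (0 had an unadjusted p under 0.05), and 0% of all 11269 genes passed, with 440 at an unadjusted p under 0.05. The interaction value (within KO minus within WT) was -0.21 for Rars2, -0.18 for Qars and 0.21 for Aars. With a single library numbered 4 in each genotype this does not show that the genotypes act alike.

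The genes listed for the amino acid response, in which ATF4 acts, were mostly higher in the libraries numbered 4. Of the 33 listed amino acid response genes, all of them tested, 31 (93.9%) rose and 0 fell, with a median of 2.31, where 31.8% of all genes were called higher and 33.8% lower. Atf4 itself was at 7.96, 8.08 and 9.15 in KO and at 7.82, 8.50 and 9.27 in WT, a rise of 1.12 (SE 0.15). Ddit3, which encodes the stress transcription factor CHOP, rose by 4.09 (SE 0.12) and Ppp1r15a, which encodes a phosphatase subunit that reverses eIF2 phosphorylation, by 3.58 (SE 0.11). The transcription factor genes Atf3 and Atf5 rose by 3.35 (SE 0.07) and 3.31 (SE 0.06). The largest synthetase rise, 1.49 for Sars, was below that list's median. The part of ATF4 in the synthetase values was not tested. Exons of Mars share 68 bases with those of Ddit3 on the opposite strand, and Mars did not pass.

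Nuclear genes for mitochondrial translation factors stood near the background, with 3 of 13 tested members higher (23.1%, against 31.8% of all genes) and 5 lower (38.5%, against 33.8%) and a median of -0.08. Tufm and Gfm1, which encode the mitochondrial elongation factors Tu and G1, fell by 1.02 (SE 0.05) and 0.99 (SE 0.05) on the log2 scale. Ptcd3, a protein of the mitochondrial small ribosomal subunit, fell by 0.62 (SE 0.06), and the initiation factor gene Mtif2 rose by 0.54 (SE 0.08).

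KO was then compared with WT, the comparison that the labels name. No synthetase gene passed the threshold. Of 38 members 0 passed with limma (0% of all genes did) and none reached an unadjusted p under 0.05 (23 of all genes did), nor did any with voom on the recovered reads. These fits have no term for the library number, so differences between the numbers enter their spread and a KO effect could be missed. In limma the SE of Sars was 0.59 without such a term and 0.06 with the number as a replicate block. With the library number as a replicate block 0 members passed against 0.00887% of all genes (1 gene, lower in KO). An unadjusted p under 0.05 was reached by 1 member, Sars, and by 1117 of all 11269 genes tested. Voom with the block gave the same counts for the members. Cytosolic members had a median KO minus WT difference of -0.06 and mitochondrial members of 0.02, against -0.0071 over all genes tested, and both medians changed sign when some libraries were left out.

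The 6 members with the smallest p under the block were Sars, Lars2, Gars, Wars2, Nars and Lars. Sars averaged 8.63 ± 0.86 over KO against 8.77 ± 0.90 over WT (SD, n = 3 each), and KO minus WT was 0.0091, -0.29 and -0.15 within the numbers 1, 2 and 4 (limma adjusted p = 0.472 with the block). Lars2 was lower in KO in 3 of 3 numbers, by -0.06, -0.06 and -0.15, with means of 9.39 ± 0.19 and 9.48 ± 0.25 (limma adjusted p = 0.584 with the block). Wars2, the mitochondrial tryptophanyl enzyme, was at 4.58, 4.78 and 4.49 in KO and 4.56, 4.47 and 4.41 in WT, higher in KO by 0.02, 0.31 and 0.08. Nars, the asparaginyl enzyme, was at 8.47, 8.50 and 9.57 in KO and 8.37, 9.05 and 9.61 in WT and differed by 0.10, -0.55 and -0.04, with the widest gap in number 2 and a mean difference of -0.16. Gars (0.07, -0.31 and -0.10) and Lars (0.04, -0.35 and -0.03) showed the same order of pairs. No member differed by 0.2 or more in the same direction in all 3 numbers.

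The sign of KO minus WT in the cytosolic class differed between the library numbers. Within number 1, 17 of 19 cytosolic members were above WT, with a median of 0.08. Within number 2 it was 2 of 19, with a median of -0.14. Within number 4 it was 6 of 19, with a median of -0.04. Of all 11269 genes tested, 5622, 5603 and 5260 were above WT in the numbers 1, 2 and 4. Each number sets a single KO library against a single WT library. No cytosolic member was lower in KO in 3 of 3 numbers and none was higher in 3 of 3, where 17% and 15.6% of all genes tested were. Among mitochondrial members 7, 6 and 10 of 17 were above WT in the numbers 1, 2 and 4, with medians of -0.02, -0.06 and 0.04. Of these genes 4 were lower in KO in 3 of 3 numbers (Lars2, Fars2, Sars2 and Cars2) and 2 were higher (Yars2 and Wars2).

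**Figure D5:**
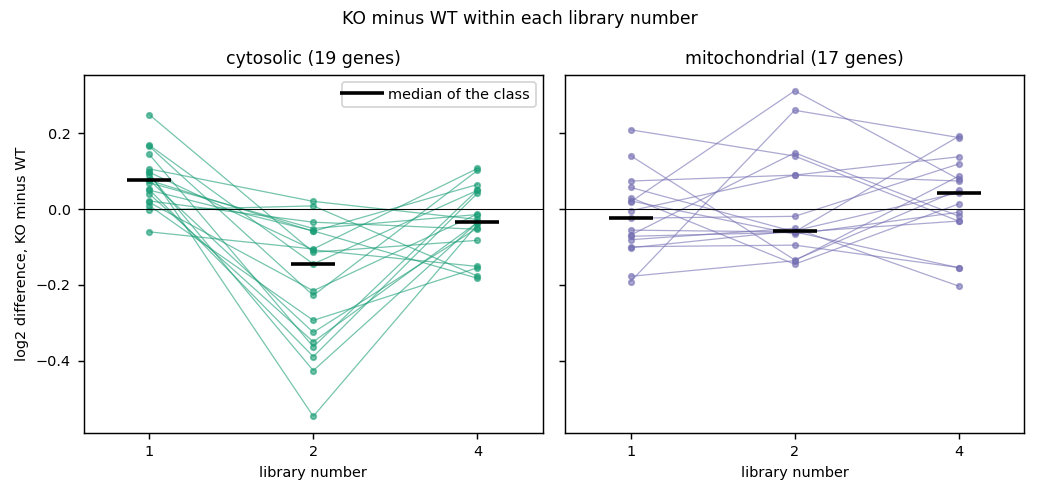
KO minus WT log2 difference (y axis) within each library number (x axis) for the 19 cytosolic and 17 mitochondrial genes, with a line joining the values of 1 gene and a black bar at the median of the class. The cytosolic medians are 0.08, -0.14 and -0.04 and the mitochondrial ones -0.02, -0.06 and 0.04, so the genotype difference has no common sign across the numbers.

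Library WT 2 stood between the libraries numbered 4 and the other 3 in Sars, Aars, Lars, Eprs, Yars, Nars, Iars, Tars and Wars. This did not hold in the other cytosolic members. In Farsa, Hars, Dars and Tarsl2, which were lower in the libraries numbered 4, WT 2 was the highest library. WT 2 was above WT 1 in 19 of 19 cytosolic members, with a median difference of 0.29. The same held in 10 of 17 mitochondrial members, with a median of 0.04. Over all genes tested WT 2 was above WT 1 in 5609 of 11269, with a median of -0.0011. The largest cytosolic gaps between WT 2 and WT 1 were Cars (0.75), Nars (0.67), Aars (0.64) and Tars (0.57), and the smallest Qars (0.0072), Vars (0.04) and Farsa (0.04). KO 2 was above KO 1 in 12 of 19 cytosolic members, with a median of 0.03. These gaps and the KO minus WT values of number 2 share the library WT 2, so they are not independent.

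The amino acid response genes were likewise higher in WT 2 than in WT 1, in 30 of 33 members, with a median of 0.68. Chac1, which encodes a glutathione-degrading enzyme, was at 3.08 in WT 1, 5.12 in WT 2 and 6.38 in WT 4, and asparagine synthetase (Asns) was at 6.98, 8.11 and 9.09 there. Chac1 and Asns were named after their values were seen. Ddit3, Atf3 and Ppp1r15a were at 2.83, 4.08 and 3.79 in WT 2 and at 2.51, 4.12 and 3.97 in WT 1, and rose to 6.87, 7.46 and 7.55 in WT 4. For the whole list KO minus WT was -0.0058, -0.56 and -0.05 at the median within the numbers 1, 2 and 4. The part of this gap in the synthetase values was not tested.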

How the data were processed

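The members, classes and lists were chosen with earlier results of these data known. The deposited matrix holds log2 CPM of 6 mRNA libraries made by the authors. Per the submitters' processing notes they used edgeR, Subread 1.6.4 with featureCounts, STAR 2.7.3a, Trimmomatic 0.39 and build GRCm38. Strand setting, annotation and normalization were not stated, so reads of overlapping genes can be misassigned: 15 members share exonic bases with another gene in GENCODE M21. Aars shares 1326 bases and Tarsl2 shares 120 with 1 gene on the same strand, where no strand setting tells the reads apart. All linear values were whole multiples of 1 read within 0.01. A count of 0 allows up to 0.144 to 0.173 CPM (3 reads, counting error only).

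The filter left 11269 genes and dropped 183. limma 3.58.1 (R 4.3.3), with variance following the mean, was fitted to log2 CPM across all genes. It was tested on simulated data in which far fewer genes changed than here, so that test does not cover these data. Tests were two-sided, with Benjamini-Hochberg adjustment and a threshold of 0.05. The authors' prior understates log2 differences of low genes. With 3 libraries against 3, an exact permutation test reaches p = 0.1 at best. Levels per length use APPRIS principal transcripts.

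Deviations of same-numbered libraries from their genotype means correlated at 0.744, 0.784 and 0.921 across genes (numbers 1, 2 and 4). KO 1 with WT 2 correlated at 0.687 and KO 2 with WT 1 at 0.617. These values set number 4 apart but barely tell a pairing within numbers 1 and 2 from a crossed one. The number served as a replicate block in an alternative, and no label states this pairing. Values in every library are given for the 5 highest and 3 lowest differences of each class (libraries numbered 4), the dual genes, and the 6 smallest p under the block; other lists give up to 4 genes of smallest p, and Atf4. 1 mitochondrial member is counted in its class but not reported here by name, drawn with a label or paired. Any other gene outside the members was named after its values were seen.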

Additional observations from a re-analysis of the deposited data

How the results depend on the processing

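The counts and medians were recomputed without a filter, with a filter at log2 CPM 1, with 1 or 0.25 CPM added, after centring on medians or quantile normalization, with a robust or an untrended variance, by voom, with the number 4 as a term or left out, with other classings of Tarsl2, Kars and Gars, and each library left out. Voom with the block and leaving out Lars2 were chosen after seeing the data. Leaving out 1 library at a time, cytosolic members called higher in the libraries numbered 4 ranged from 10 to 12 and those called lower from 2 to 4, the lowest without KO 4. Mitochondrial members called higher ranged from 2 to 3 and lower from 8 to 9. The medians ranged from 0.38 to 0.55 and from -0.32 to -0.21. With Tarsl2 classed as mitochondrial the cytosolic median was 0.61. With quantile normalization 1 mitochondrial member was called higher within WT, and the mitochondrial median there was -0.27. For KO minus WT 0 members were called under every alternative, the replicate block included, and without 1 library the cytosolic median ranged from -0.23 to 0.14 and the mitochondrial from -0.07 to 0.08, both crossing 0. Of the values of single members in the comparisons of the libraries numbered 4, 39 lost and 8 gained a call under an alternative, 1131 stayed on their side of the threshold, called or not, and no called value changed sign. Members with the fewest reads, Pars2 (111 to 132), Sars2 (142 to 237) and Ears2 (178 to 312), have the widest counting error.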

Other observations

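Of the 8 tested genes of eIF2 kinases and their partners, 1 was higher and 5 were lower in the libraries numbered 4, with a median of -0.33, where 31.8% of all genes were called higher and 33.8% lower. The member that was higher was Eif2ak3, which encodes the kinase PERK of the endoplasmic reticulum (difference 0.37, limma adjusted p = 0.0066), and it was named after its value was seen. Eif2ak4, which encodes the kinase GCN2 that senses uncharged tRNA, was at 5.79, 5.71 and 5.08 log2 CPM in the KO libraries 1, 2 and 4 against 5.72, 5.72 and 5.21 in the WT libraries (difference -0.59, SE 0.07). Its activator gene Gcn1 differed by -0.31 (SE 0.05), the eIF2 alpha subunit gene Eif2s1 by -0.56 (SE 0.06), and Eif2b5, a subunit of the exchange factor of eIF2, by -0.46 (SE 0.06).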
